A study of Mus musculus with 6 samples.

Results

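The 7 genes described here encode the core of the Ras-Raf-MEK-ERK cascade and were taken by name from a table of 54532 genes. They are Grb2, Sos1, Hras, Nras, Braf, Map2k1 and Mapk3. The cascade carries signals from receptor tyrosine kinases at the cell surface to the nucleus. The adaptor Grb2 brings the exchange factor Sos1 to activated receptors, and Sos1 loads Ras GTPases with GTP. Ras then recruits Raf kinases, which phosphorylate MEK, which phosphorylates ERK. Sprouty1, encoded by Spry1, is a feedback inhibitor of this signalling upstream of ERK. In epidermis the cascade is known for driving keratinocyte proliferation downstream of growth factor receptors. The cascade is switched on and off mainly by phosphorylation and GTP loading, which an RNA measurement does not see, so the values below speak of transcript levels only.

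RNA from mouse back epidermis was sequenced in 3 samples of Spry1flox/flox mice with K14-Cre-ERT2, here called Spry1_KO, and in 3 samples of Spry1flox/flox mice without Cre, here called Control. K14-Cre-ERT2 is a tamoxifen-inducible recombinase driven by the keratin 14 promoter of basal keratinocytes. Cells of the sample that do not arise from basal keratinocytes would keep the gene. Both groups carried the floxed allele and received tamoxifen orally at a dose of 0.1 mg for each g of body weight, given 4 times each week for 4 weeks. No sample carried Cre without the floxed allele, so Cre itself and loss of Spry1 cannot be told apart. The labels give no age, sex or pooling, and nothing states that each sample is a different animal, so p-values reflect the spread among the 6 samples, technical spread included.

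Spry1 read 1.06, 1.49 and 1.28 FPKM in the Spry1_KO samples, against 25.8, 28.2 and 34.4 FPKM in the Control samples. FPKM is fragments per kilobase of gene, scaled to sequencing depth, a scale on which levels of different genes can be compared. Reads recovered from the table summed to between 18383323 and 21024715 per sample. The summed level of 7 keratinocyte markers was 22013 to 27634 FPKM in Spry1_KO and 11899 to 14396 FPKM in Control, so the samples hold the labelled tissue. At a limma adjusted p under 0.05, 3 of these markers were higher and 2 lower in Spry1_KO. Krt14 averaged 11064 FPKM in Spry1_KO and 2706 FPKM in Control, while Krt10 averaged 2751 FPKM in Spry1_KO and 5101 FPKM in Control. Marker sums of the other cell types did not overlap between the groups, except those of T cells and endothelial cells, which did. The summed level of 8 macrophage and neutrophil markers was 333 to 556 FPKM in Spry1_KO and 18.4 to 30.8 FPKM in Control. Most of that sum in every Spry1_KO sample was S100a8, which stressed keratinocytes also make, with 246, 475 and 181 FPKM in Spry1_KO and 1.19, 3.55 and 1.77 FPKM in Control. Of the other 7 markers of that list 6 rose, while the macrophage marker Adgre1 fell, averaging 1.88 FPKM in Spry1_KO and 6.74 FPKM in Control. The summed level of 5 melanocyte markers was 207 to 211 FPKM in Spry1_KO and 7.93 to 11.01 FPKM in Control. The 5 Langerhans cell markers summed to 371 to 550 FPKM in Spry1_KO and 959 to 1567 FPKM in Control. The 6 T cell markers summed to 29.1 to 59.3 FPKM in Spry1_KO and 56.5 to 80.4 FPKM in Control, and the 5 skeletal muscle markers to 3.90 to 5.72 FPKM in Spry1_KO and 15.8 to 58.0 FPKM in Control. The 6 fibroblast markers summed to 1.71 to 5.36 FPKM in Spry1_KO and 6.41 to 14.7 FPKM in Control, and the 4 endothelial markers to 0.529 to 1.17 FPKM in Spry1_KO and 0.538 to 3.22 FPKM in Control. No marker of these lists was at 0 in all 6 samples, but 3 of 4 endothelial and 2 of 6 fibroblast markers were under 1 FPKM in all 6. The part of these cell types in the results below was not tested. Mitochondrial genes took up 7.37% to 12.7% of all FPKM in Spry1_KO and 4.20% to 10.3% in Control. Control replicate 3 stood apart from the other Control samples, with a chi-square of its recovered reads of 58.7 and 67.3 per gene against theirs, where the other Control pair gave 11.8 and the Spry1_KO pairs 27.7 to 30.7.

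Map2k1, which encodes the MEK1 kinase, was the cascade gene with the clearest difference. It read 33.4, 29.6 and 29.0 FPKM in the Spry1_KO samples, against 13.0, 16.9 and 15.7 FPKM in the Control samples. Every Spry1_KO sample lay above every Control sample. The means were 30.7 ± 2.35 FPKM in Spry1_KO and 15.2 ± 2.002 FPKM in Control (SD, n = 3 each), a ratio of 2.02, and the difference on the log2(FPKM + 1) scale, given below as the log2 fold change, was 0.97 ± 0.11 (SE; limma adjusted p of 0.000571). Of all tested genes, 8.64% had a rise at least as large. Nras, which encodes one of the membrane-bound Ras GTPases, was higher by a smaller margin. It read 23.0, 24.7 and 24.9 FPKM in Spry1_KO, against 19.6, 19.6 and 20.6 FPKM in Control. The groups did not overlap, and the log2 fold change reached 0.27 ± 0.07 (SE; limma adjusted p of 0.0187). Without Control replicate 3 and Spry1_KO replicate 2 together, the log2 fold change was 1.03 for Map2k1 and 0.28 for Nras (limma adjusted p of 0.00418 and 0.0433). The call of Nras was lost in 4 of 6 fits without a single sample, with the replicate block (limma adjusted p of 0.0587), under both scalings described below and in limma-voom (0.157). In bulk RNA, a change in the number of cells of a type and a change in RNA per cell cannot be told apart.

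Map2k1 and Nras were thus the 2 of the 7 genes that rose, and none fell, at an adjusted p under 0.05 in limma over 12629 genes whose mean was 1 FPKM or more. At an unadjusted p under 0.05 limma gave 1 lower gene, Braf. Limma-voom on recovered reads called 1 higher and 2 lower of 6, where it called 53.1% of all genes and 30.1% as lower. All 7 genes passed the filter on low values. Of all tested genes, 54% were called in either direction, 29.6% higher and 24.4% lower in Spry1_KO, so the share called among the cascade genes, 28.6%, was not above that of the table as a whole. The FPKM ranges of the groups did not overlap for 4 of the 7 genes, or 57.1%, against 64.2% of all tested genes. The median log2 fold change was -0.03 over the 7 genes and 0.03 over all tested genes.

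**Figure D1:**
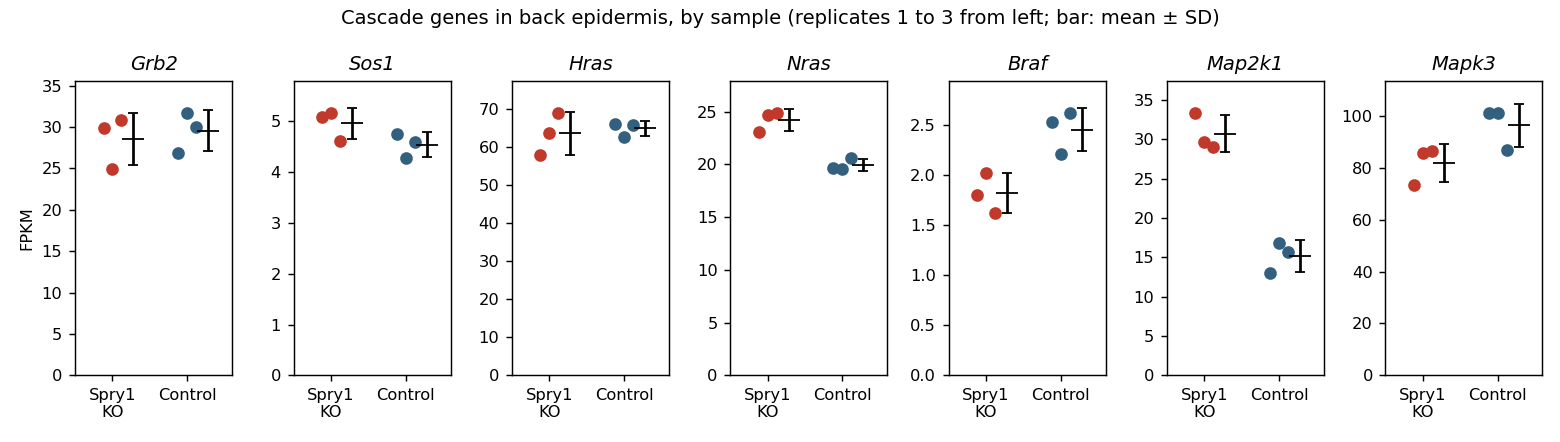
FPKM of the 7 cascade genes in each sample, with Spry1_KO left of Control in each panel, points for samples, and mean ± SD beside them; each vertical axis starts at 0. Map2k1 shows the widest gap, with 29.0 to 33.4 FPKM in Spry1_KO and 13.0 to 16.9 FPKM in Control, while the ranges of Grb2, Sos1 and Hras overlap.

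The start regions of Map2k1 and Nras, which rose, are shown with those of Hras, an abundant Ras gene, and Braf, the lowest cascade gene and one that read lower in Spry1_KO. RefSeq (GRCm38.p6) gives these windows of 300 bases, from 250 before to 50 after the start site, for 6 of the 7 genes. Their coordinates are chr9:64253556-64253855 on the minus strand, chr3:103058035-103058334 on the plus strand, chr7:141193955-141194254 on the minus strand and chr6:39725414-39725713 on the minus strand. Each is written 5′ to 3′ along its gene, and capitals mark matches, on either strand, to the ETS motif CCGGAA, the AP-1 motif TGANTCA, the GC box GGGCGG, the cyclic AMP response element TGACGTCA and the TATA motif TATAAA.
Map2k1: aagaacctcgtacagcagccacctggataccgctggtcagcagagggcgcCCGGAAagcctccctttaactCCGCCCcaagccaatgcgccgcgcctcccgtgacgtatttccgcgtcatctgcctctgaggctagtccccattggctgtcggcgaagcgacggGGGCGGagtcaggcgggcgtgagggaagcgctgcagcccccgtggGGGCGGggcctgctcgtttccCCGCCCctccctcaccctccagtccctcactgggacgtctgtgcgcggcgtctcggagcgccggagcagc
Nras: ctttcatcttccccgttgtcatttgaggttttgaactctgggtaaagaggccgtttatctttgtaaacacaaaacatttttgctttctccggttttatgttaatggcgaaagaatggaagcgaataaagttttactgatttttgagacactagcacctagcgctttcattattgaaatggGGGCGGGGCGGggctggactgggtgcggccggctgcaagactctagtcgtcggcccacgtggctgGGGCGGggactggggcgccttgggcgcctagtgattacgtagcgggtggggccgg
Hras: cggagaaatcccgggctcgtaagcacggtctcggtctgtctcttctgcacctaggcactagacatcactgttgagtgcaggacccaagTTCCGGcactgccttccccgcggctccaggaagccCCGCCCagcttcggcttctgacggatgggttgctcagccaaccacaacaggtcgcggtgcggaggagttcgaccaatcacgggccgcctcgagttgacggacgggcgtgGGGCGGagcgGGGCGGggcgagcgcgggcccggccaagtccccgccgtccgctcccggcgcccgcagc
Braf: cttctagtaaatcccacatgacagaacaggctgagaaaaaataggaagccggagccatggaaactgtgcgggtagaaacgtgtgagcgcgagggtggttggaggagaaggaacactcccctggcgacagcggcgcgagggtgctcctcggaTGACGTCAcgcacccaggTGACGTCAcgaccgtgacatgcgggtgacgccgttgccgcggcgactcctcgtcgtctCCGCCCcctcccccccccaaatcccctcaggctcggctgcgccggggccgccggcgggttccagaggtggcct
The window of Map2k1 held 4 GC boxes and 1 ETS match, that of Hras 3 GC boxes and 1 ETS match, and that of Nras 3 GC boxes, of which a pair shares a base. The Braf window held 2 matches to the cyclic AMP response element and 1 GC box. Of 32851 such windows of mouse genes, 35.7% held a GC box, 14.9% the ETS motif, 7.81% the AP-1 motif, 1.79% the cyclic AMP response element and 13.6% the TATA motif. Base composition differed among the shown windows, with 69% G and C for Map2k1 and for Hras, 65% for Braf and 52.3% for Nras. The matches describe letters in these windows and were not set against the expression values.

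Neither the upstream adaptor nor the exchange factor passed the test. Grb2, whose SH2 domain binds phosphorylated receptors and whose SH3 domains hold Sos1, read 29.9, 24.9 and 30.8 FPKM in Spry1_KO, against 26.9, 31.7 and 30.0 FPKM in Control. The groups overlapped, and the log2 fold change was -0.05 with a 95% interval of -0.31 to 0.21 (limma adjusted p of 0.718). Its sign depended on single samples, since it was 0.04 without Spry1_KO replicate 2 and 0.0009 without Control replicate 2. Sos1, the exchange factor that loads Ras with GTP, was low, at 5.09, 5.17 and 4.61 FPKM in Spry1_KO, against 4.75, 4.27 and 4.58 FPKM in Control. Here too the groups overlapped, with a log2 fold change of 0.11 and a 95% interval of -0.10 to 0.31 (limma adjusted p of 0.322). For deposited values these intervals leave room for changes in either direction but not for one as large as that of Map2k1. Under TPM scaling the difference for Sos1 was -0.14. For Grb2 it was -0.33 under TPM scaling, with a 95% interval of -0.64 to -0.01 (limma adjusted p of 0.0779).

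Hras, which encodes a Ras GTPase like Nras, was the more abundant of the pair and did not pass. Hras read 58.0, 63.8 and 69.1 FPKM in Spry1_KO, against 66.2, 62.8 and 65.8 FPKM in Control. The Control samples lay within the range of the Spry1_KO samples, and the log2 fold change was -0.03 with a 95% interval of -0.25 to 0.18 (limma adjusted p of 0.789), or 0.03 without Spry1_KO replicate 1.

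Raf kinases relay the signal from Ras to MEK, and Braf was the cascade gene of the lowest level. Braf read 1.80, 2.02 and 1.62 FPKM in Spry1_KO, against 2.53, 2.21 and 2.62 FPKM in Control. All Spry1_KO values lay below all Control values, but the log2 fold change of -0.30 ± 0.11 (SE) did not pass in limma (adjusted p of 0.0553). The paralogue Araf read 8.52, 9.21 and 8.23 FPKM in Spry1_KO, against 13.9, 13.3 and 17.7 FPKM in Control, and it fell by 0.72 on the log2 scale (limma adjusted p of 0.00248).

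In the MEK tier, Map2k1 made up a larger share beside its paralogue in every Spry1_KO sample than in any Control sample. Map2k2, which encodes MEK2, read 26.5, 26.8 and 27.2 FPKM in Spry1_KO, against 19.8, 22.05 and 21.7 FPKM in Control, and rose by 0.33 on the log2 scale (limma adjusted p of 0.0095). Shares of a tier's transcripts within a sample do not depend on how a library is scaled. Map2k1 held 55.8%, 52.5% and 51.7% of the summed MEK transcripts in Spry1_KO, against 39.6%, 43.3% and 42.0% in Control. The gap of 11.7 percentage points compares with an SD of 2.18 points in Spry1_KO and 1.89 points in Control, and the groups did not overlap (exact two-sided permutation p of 0.1, the smallest that 3 against 3 samples can give). In FPKM, which divides by gene length, Map2k1 was thus the larger share in every Spry1_KO sample and the smaller in every Control sample. In recovered reads, not divided by length, Map2k1 was the smaller share in every sample of both groups. Its reads were 2274, 1743 and 1620 in Spry1_KO, against 3010, 2634 and 2532 for Map2k2. In Control they were 801, 1045 and 1039, against 2041, 2283 and 2395 for Map2k2.

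At the end of the cascade, Mapk3 read lower in Spry1_KO by a margin that did not pass. Mapk3, which encodes ERK1, read 73.3, 85.6 and 86.4 FPKM in Spry1_KO, against 101, 101 and 86.7 FPKM in Control. The highest Spry1_KO sample lay just under the lowest Control sample, and the log2 fold change of -0.23 ± 0.11 (SE) did not pass (limma adjusted p of 0.106). In the SOS tier, the share of Sos1 against its paralogue Sos2 overlapped between the groups, at 44.6% to 45.4% in Spry1_KO and 41.6% to 46.3% in Control (exact permutation p of 0.4). In all, 6 shares of cascade genes were tested, of which 3 did not overlap between the groups, each at an adjusted exact permutation p of 0.2. Such shares were not computed for genes outside the tiers, so no share over all genes stands beside this count. The shares of Hras and Nras are parts of the same tier and so are not independent. The shares of Map2k1 and Sos1 are given here, and the adjusted exact permutation p was 0.2 for Map2k1 and 0.6 for Sos1.

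**Figure D2:**
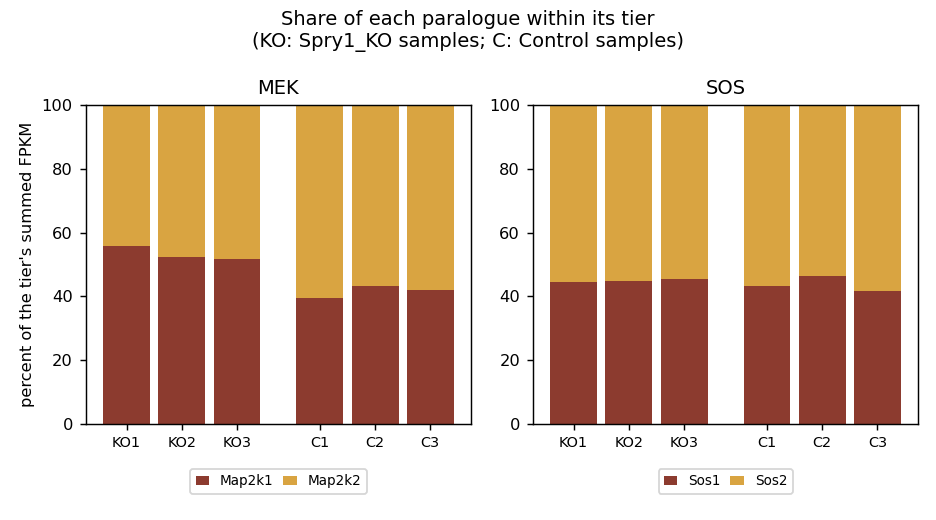
Share of each paralogue in the summed FPKM of its tier, in percent, with 1 bar per sample and the Spry1_KO samples left of the Control samples. Map2k1 makes up 51.7% to 55.8% of the MEK bars in Spry1_KO and 39.6% to 43.3% in Control, while Sos1 lies at 44.6% to 45.4% of the SOS bars in Spry1_KO and 41.6% to 46.3% in Control.

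The order of the cascade genes by level changed between the groups in 1 respect. In Spry1_KO the order from high to low was Mapk3, Hras, Map2k1, Grb2, Nras, Sos1 and Braf, and only the ranges of the neighbours Map2k1 and Grb2 overlapped. In Control it was Mapk3, Hras, Grb2, Nras, Map2k1, Sos1 and Braf, with no overlap between neighbours. Map2k1 thus stood at rank 3 in Spry1_KO and at rank 5 in Control. The kinase and its substrate drew closer in level, a ratio chosen after the values were seen. Map2k1 over Mapk3 was 0.455, 0.346 and 0.336 in Spry1_KO, against 0.128, 0.166 and 0.181 in Control, with every Spry1_KO sample above every Control sample. The summed level of the 7 genes was 224, 236 and 247 FPKM in Spry1_KO, against 234, 239 and 226 FPKM in Control. These deposited values overlapped. The FPKM of all genes summed to 413426, 451105 and 482950 in Spry1_KO, against 385073, 383314 and 341508 in Control. As that total was higher in every Spry1_KO sample, the overlap speaks for deposited values only. The sum of the 7 genes was not taken under other scalings.

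Which small differences passed depended on the scaling of the libraries. The deposited FPKM imply a library total of 95.6%, 90.7% and 88.1% of the recovered reads in Spry1_KO. In Control that total was 99.1%, 98.8% and 102.9% of the recovered reads. A smaller total gives higher FPKM, so deposited values were raised in Spry1_KO relative to recovered reads. The top 10 genes took 18.6% to 22.2% of all FPKM in Spry1_KO and 12.6% to 16.0% in Control. Scaling to reads recovered from the table or to TPM moved the median of all tested genes by -0.11 and -0.25 on the log2 scale, with 52.6% and 51.7% of genes called, 29.6% and 35.4% as lower. Map2k1 rose under both, by 0.85 and 0.73 (limma adjusted p of 0.00165 and 0.00755). Nras did not pass under either, with 0.14 and 0.0015 (limma adjusted p of 0.15 and 0.992). Nras also lost its call without Spry1_KO replicate 2 (limma adjusted p of 0.067) or 3 (0.0558) and without Control replicate 1 (0.0643) or 2 (0.0623). Mapk3 and Braf, in contrast, passed as lower under both scalings, Mapk3 with -0.36 and -0.51 (limma adjusted p of 0.0113 and 0.00185) and Braf with -0.38 and -0.60 (limma adjusted p of 0.0308 and 0.0232). Mapk3 passed also without Control replicate 3 (log2 fold change of -0.31, limma adjusted p of 0.038), and Hras passed as lower under TPM scaling alone (-0.31, limma adjusted p of 0.0269). Map2k2 did not pass under either scaling, with 0.20 and 0.06 (limma adjusted p of 0.0735 and 0.664). Relative to the median of all genes under the same scaling, the differences moved less: Map2k1 stood at 0.94, 0.92 and 0.95, Nras at 0.24, 0.22 and 0.22, and Mapk3 at -0.27, -0.29 and -0.29 for deposited values, recovered reads and TPM.

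**Figure D3:**
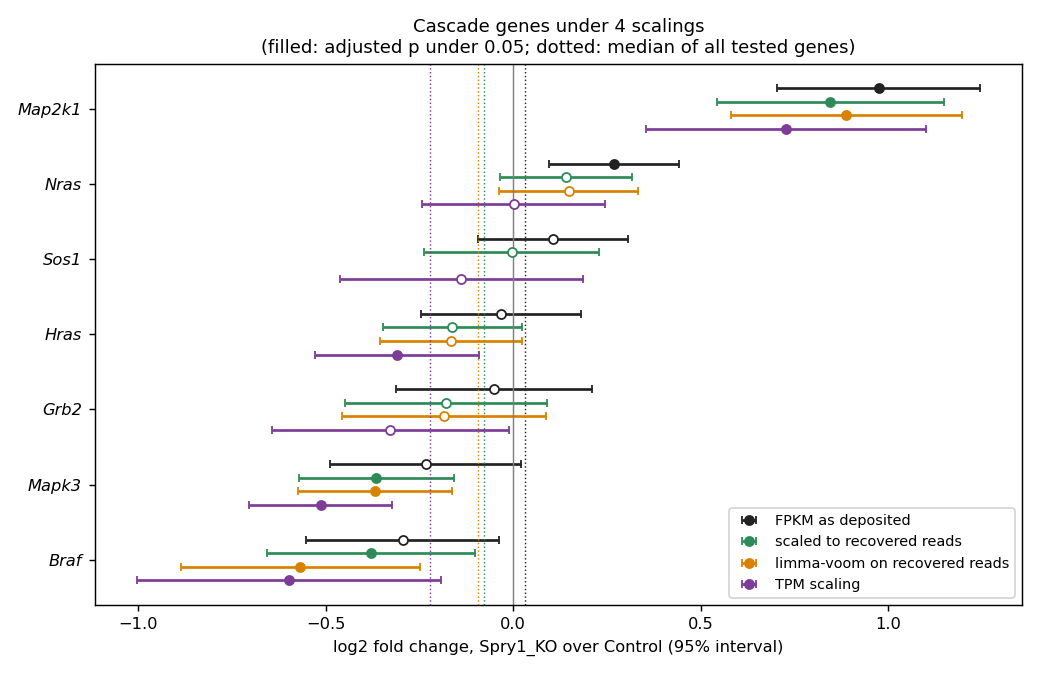
Log2 fold change of Spry1_KO over Control with its 95% interval for the 7 genes under 4 scalings; filled points have an adjusted p under 0.05, dotted lines mark the median of all tested genes under the scaling of the same colour, and Sos1 has no value in limma-voom. Map2k1 stays between 0.73 and 0.97 in all 4, while Nras is filled for deposited values only and Mapk3 and Braf for the other 3 scalings.

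Genes with the most similar profile were sought over the 6 samples, as the smallest root-mean-square difference of log2(FPKM + 1) after centring each gene on its mean. Gak, a kinase of clathrin uncoating, lay nearest to Nras at 0.020, and Elmsan1 nearest to Braf at 0.025. For Mapk3 the nearest was Ngly1, which removes sugar chains from proteins, at 0.028. Kat5, Ahctf1 and Ube2v2 were nearest to Grb2, Sos1 and Hras, whose profiles varied by 0.12, 0.08 and 0.08 log2 units in all, so their nearest genes are largely genes that varied little.

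Around the core, genes of the adaptors and docking proteins that link receptors to Ras moved both ways. Of 12 tested of 14, 2 rose and 3 fell, with a median log2 fold change of -0.13, where 54% of all tested genes passed. Shc1, an adaptor that brings Grb2 to receptors, averaged 20.0 ± 1.69 FPKM in Spry1_KO and 12.8 ± 0.338 FPKM in Control (SD, n = 3 each; limma adjusted p of 0.0013). Gab1 and Gab2, docking proteins that recruit the phosphatase Shp2, fell by 0.69 and 1.16 on the log2 scale, and the insulin receptor substrate Irs1 by 1.06. Irs1 was low, with a mean of 0.477 FPKM in Spry1_KO and 2.08 FPKM in Control. The log2(FPKM + 1) scale understates changes at such levels, and limma-voom gave -0.87 for Gab1, -1.81 for Gab2 and -2.30 for Irs1. Ptpn11, which encodes Shp2 itself and is named after its values were seen, averaged 18.9 FPKM in Spry1_KO and 19.8 FPKM in Control (limma adjusted p of 0.56). Over all alternatives 1 to 3 adaptor genes rose and 3 to 5 fell, with 1 and 5 under TPM scaling, where 16.3% of all genes were higher and 35.4% lower. The count that rose was 1 without Control replicate 2 and without each Spry1_KO replicate in turn, and 3 without Control replicate 3.

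Ras GTPase-activating proteins, which return Ras to its inactive GDP-bound state, included no tested gene that passed as higher. Of 8 tested of 10, 4 fell and the other 4 did not pass, so 50% were called, against 54% of all tested genes, of which 24.4% were lower. Over all alternatives 4 or 5 passed as lower and none as higher. Rasa3 averaged 8.07 ± 0.701 FPKM in Spry1_KO and 17.7 ± 1.44 FPKM in Control, and Rasal1 averaged 0.869 ± 0.118 FPKM in Spry1_KO and 3.03 ± 0.793 FPKM in Control (SD, n = 3 each; limma adjusted p of 0.000217 and 0.00147). Rasa2 and Dab2ip fell by 0.77 and 0.45 on the log2 scale, and limma-voom gave -1.36 and -0.62. Rasa1 and Nf1, long-studied Ras inhibitors named after their values were seen, did not pass. Rasa1 averaged 13.7 FPKM in Spry1_KO and 13.3 FPKM in Control, and Nf1 averaged 1.23 FPKM in Spry1_KO and 1.25 FPKM in Control, with 95% intervals of the log2 fold change of -0.13 to 0.21 and -0.27 to 0.24. The median log2 fold change of the list was -0.37.

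The exchange factors and processing enzymes of Ras had 9 tested genes of 14, of which 1 rose and 2 fell, or 33.3% called, against 54% of all tested genes. Rasgrp1, a diacylglycerol-responsive exchange factor, read 4.96, 4.19 and 4.48 FPKM in Spry1_KO, against 13.3, 14.5 and 15.4 FPKM in Control. It fell by 1.48 on the log2 scale (limma adjusted p of 5.5e-05), and the groups lay far apart. Rasgrp1 is also expressed in T cells, whose 6 markers summed to 29.1 to 59.3 FPKM in Spry1_KO and 56.5 to 80.4 FPKM in Control. Of these, Cd3e, Cd3g and Trdc fell by 1.68, 2.03 and 2.73 on the log2 scale, Trac was higher in Spry1_KO by 1.24 and passed, and Cd2 and Thy1 did not pass. The part of T cells in the fall of Rasgrp1 was not tested. Fntb, a farnesyltransferase subunit, rose by 0.51 and Zdhhc9, part of a Ras palmitoyltransferase, fell by 0.46. Fntb did not pass under TPM scaling (limma adjusted p of 0.12). Among 9 related Ras-family GTPases, Ralb and Rras2 rose by 0.76 and 0.63 and Rras fell by 0.42, again 33.3% called. Ralb, which acts downstream of Ral exchange factors, averaged 11.5 ± 0.667 FPKM in Spry1_KO and 6.38 ± 0.303 FPKM in Control (SD, n = 3 each; limma adjusted p of 0.000372). Rras2 lost its call when Control replicate 3 and Spry1_KO replicate 2 were both left out (0.0502 as limma adjusted p).

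Scaffolds and modulators of the cascade had 22 tested genes of 23, of which 11 rose and 4 fell, or 68.2% called, against 54% of all tested genes, of which 29.6% were higher and 24.4% lower. Pea15a, which binds ERK and holds it in the cytoplasm, read 9.43, 8.97 and 10.5 FPKM in Spry1_KO, against 39.0, 38.4 and 29.5 FPKM in Control. It fell by 1.78 on the log2 scale (limma adjusted p of 8.8e-05), and all Spry1_KO samples lay well below the Control samples. The 14-3-3 genes Ywhag and Ywhae, whose proteins bind phosphorylated Raf, rose by 0.74 and 0.53, and Ppp1ca, a phosphatase subunit of the complex that activates Raf, by 0.75. Ywhae did not pass under TPM scaling (limma adjusted p of 0.0855), where 4 genes of the list rose and 5 fell, against 16.3% of all genes higher and 35.4% lower. Of the kinases that ERK activates, 2 of 5 tested of 7 rose and none fell. That is 40% called, against 54% of all tested genes, of which 29.6% were higher and 24.4% lower. Rps6ka4, which encodes MSK2, averaged 63.7 ± 1.03 FPKM in Spry1_KO and 29.9 ± 1.40 FPKM in Control, and Rps6ka1, which encodes RSK1, averaged 18.04 ± 0.920 FPKM in Spry1_KO and 12.8 ± 0.711 FPKM in Control (SD, n = 3 each; limma adjusted p of 8.1e-05 and 0.00283). Rps6ka1 did not pass under TPM scaling (limma adjusted p of 0.21), where 1 gene of that list rose and 3 fell beside the same shares of all genes.

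The parallel p38, JNK and ERK5 cascades moved both ways, with 4 risen and 4 fallen of 15 tested genes of 16, or 53.3% called, close to the 54% of all tested genes. Mapk13, a p38 kinase of epithelia, averaged 37.1 ± 1.40 FPKM in Spry1_KO and 21.1 ± 2.37 FPKM in Control (SD, n = 3 each), and Map2k3, which activates p38, rose by 0.64. Map3k1 and Mapk12 fell by 1.01 and 0.85 on the log2 scale. Mapk12 was low, with a mean of 0.819 FPKM in Spry1_KO and 2.27 FPKM in Control, and limma-voom gave -1.23 for Map3k1 and -1.61 for Mapk12. Under TPM scaling 2 of these genes rose and 6 fell, and scaled to recovered reads 4 rose and 6 fell. The count that fell was 2 without Control replicate 2 or 3 and without Spry1_KO replicate 2 or 3. Transcripts known to follow ERK activity had 15 tested genes of 17, of which 7 rose and 2 fell, or 60% called, near the 54% of all tested genes. Etv4, an ETS factor, read 23.2, 20.2 and 14.7 FPKM in Spry1_KO, against 1.38, 1.69 and 2.48 FPKM in Control. Every Spry1_KO sample lay above every Control sample. Etv5, a related ETS factor, averaged 10.1 FPKM in Spry1_KO and 3.31 FPKM in Control, and Phlda1 averaged 11.1 FPKM in Spry1_KO and 1.44 FPKM in Control. Spry2, a Sprouty paralogue, fell and averaged 9.15 FPKM in Spry1_KO and 18.2 FPKM in Control. Over all alternatives 5 to 10 genes of this list rose and 1 or 2 fell.

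**Figure D4:**
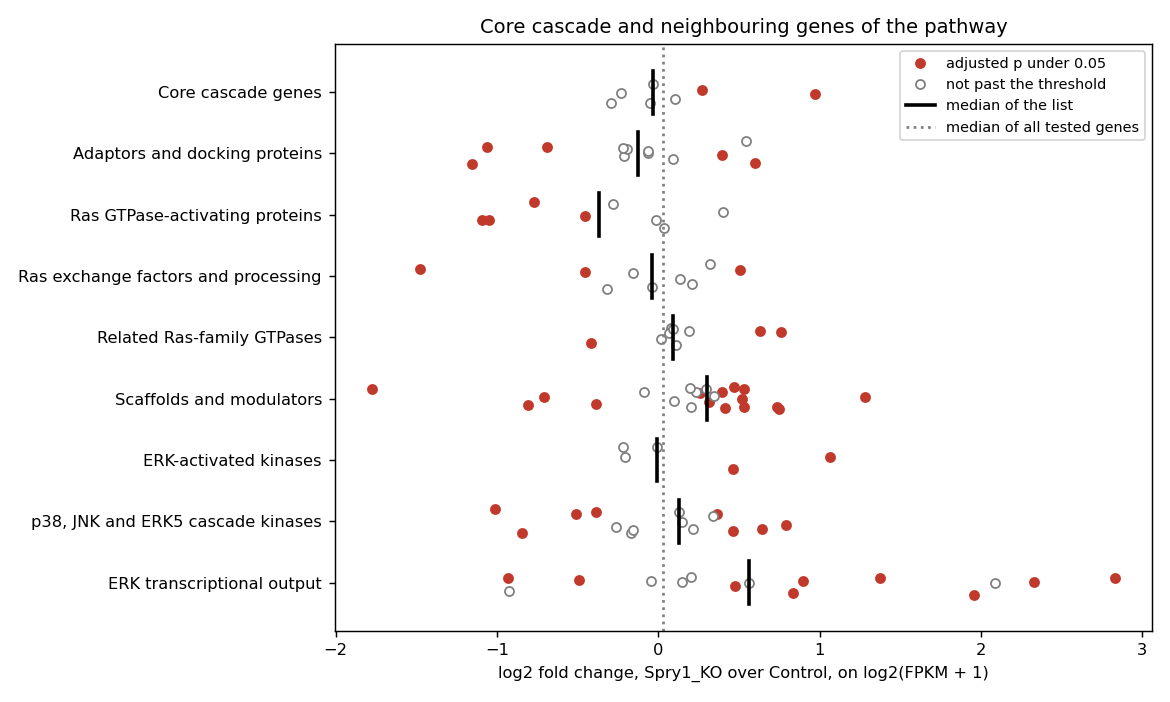
Log2 fold change of Spry1_KO over Control for each tested gene of the core cascade and of 8 lists of its pathway, with filled points for an adjusted p under 0.05, black bars for the median of a list and a dotted line for the median of all tested genes. The 7 core genes lie between -0.30 and 0.97, while ERK-responsive transcripts reach 2.83 and Pea15a, among the scaffolds and modulators, lies at -1.78.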

How the data were processed

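The authors deposited a single table of FPKM values, with 54532 genes in rows and the 6 samples in columns. The submitters' processing notes list HISAT2 2.0.5, featureCounts 1.5.0-p3 and the build GRCm38. No source used here states the annotation release, strandedness or FPKM formula. Sample titles gave the groups and replicate numbers, and each library started from 0.4 ug of RNA. Positions and exon lengths came from GENCODE M21 (GRCm38), which matched 54495 gene IDs. Multiplying FPKM by exon length gave whole reads, to within 0.1, for 97.0% to 97.3% of the values above 0, where chance would give 20%. Reads behind each cascade gene were 370 to 4790 per sample. Those of Sos1 did not come out whole, so it is missing from limma-voom.

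Genes averaging 1 FPKM or more were tested in limma 3.58.1 (R 4.3.3), on log2(FPKM + 1) with a variance trend and genotype alone in the model. The test was two-sided, with Benjamini-Hochberg adjustment over all of them. Fold changes on this scale understate changes of low genes. The fit was tested on simulated data. Shares within tiers were tested by exact permutation (scipy 1.17.1). Members, lists and alternatives were chosen with earlier results of these data known. The rule for named genes took the 7 genes, their paralogues, Spry1, up to 4 called genes of each list with the lowest p, and the 1 most similar gene per member, and some results under it are not reported here. Rasa1, Nf1 and Ptpn11 were chosen after their values were seen and were not followed under the alternatives, nor were the cell type markers. Alternatives were another pseudocount (0.1), no filter, other scalings, limma-voom, array weights, a replicate block and leaving out samples. Replicates of a group differed by a chi-square of 11.8 to 67.3 per gene, more than sampling noise. Figures were made in matplotlib 3.10.9.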

Additional observations from a re-analysis of the deposited data

How the results depend on the processing

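Map2k1 kept its direction and its call under all 15 alternatives (0.87 to 1.05 with each sample left out). Leaving out 1 sample gave log2 fold changes of -0.12 to 0.040 for Grb2, -0.092 to 0.033 for Hras, -0.058 to 0.10 for Sos2, 0.25 to 0.30 for Nras and -0.31 to -0.16 for Mapk3, with 1 to 2 cascade genes called higher and 0 to 1 lower. Grb2 read 0.053 without Control replicate 3 and Spry1_KO replicate 2 together. TPM scaling gave 2055 genes higher and 4470 lower in all, against 3736 and 3079 for deposited values, and 1 cascade gene higher and 3 lower. Under TPM scaling the log2 fold changes were -0.33 for Grb2, -0.14 for Sos1, -0.31 for Hras and 0.0015 for Nras. They were -0.60 for Braf, -0.51 for Mapk3 and -0.21 for Sos2. Scaled to recovered reads, with 2900 genes higher and 3742 lower, they were -0.0033 for Sos1, 0.14 for Nras, -0.38 for Braf, -0.36 for Mapk3 and -0.070 for Sos2, with 1 cascade gene higher and 2 lower. Limma-voom on recovered reads gave 2764 genes higher and 3615 lower, and 0.15 for Nras, -0.57 for Braf, -0.37 for Mapk3 and -0.079 for Sos2, again with 1 and 2. Array weights called Mapk3 as lower (-0.31), so 1 cascade gene was lower. The cause of these changes beyond the shift of the median was not tested. With the replicate number as a block, Nras kept 0.27 with a limma adjusted p of 0.0587, leaving 1 cascade gene higher, and 5834 genes passed in all. The numbers were not taken to pair the samples, since the deviations of same-numbered samples correlated at -0.10, -0.11 and -0.12. The difference in the share of Map2k1 was 10.4 to 12.5 percentage points with each sample left out and 10.7 in recovered reads. That of Sos1 was 1.30 points, or 0.247 without Control replicate 3 and 2.62 without Control replicate 2, and the SOS tier gave no value for shares of recovered reads. With 3 samples per group, the exact permutation test cannot go below 0.1.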
